A study of Mus musculus with 36 samples.

Results

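The miRNA miR-7 and the RNA regions that carry a site for it were followed in colonic tumours of mice with HEAP (Halo-enhanced Ago2 pulldown), a crosslinking method that recovers the miRNAs and the target fragments held by the Argonaute protein Ago2. The miR-7 arms were chosen by name, and 4 of the 596 mature miRNAs in the deposited table belonged to miR-7. The target regions were selected on measured values, because a peak entered the authors' annotation only where the mRNA libraries of a genotype had enough signal to call it. Of 7585 annotated peaks, 97 had an entry for miR-7 among the authors' 8mer or 7mer-m8 seed matches, and these 97 peaks lay in 96 genes.

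All animals were C57BL/6 mice that carried the tagged Ago2 on 1 allele (Halo-Ago2/+), the inducible recombinase Villin-CreER/+ and floxed Apc on both alleles, written Apc(fl/fl). The group called WT here is labelled Control and kept wild-type K-ras, and the group called G12D, labelled Experimental, carried K-Ras-G12D/+ in addition, so that both groups lost Apc. A 4-hydroxytamoxifen enema given at an age of 8 to 12 weeks induced the tumours, and tissue was collected when the animals became moribund. The Villin promoter drives Cre in gut epithelium, but tumour lawns were resected or scraped whole, so other cells of the colon were present. Each genotype had 6 tumours, 3 in each of 2 batches, and since the labels do not tie each number to a separate animal, the tests speak only of the spread between samples, which may be technical in part.

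miR-7 is a deeply conserved miRNA best known from endocrine cells and neurons. A miRNA guides Ago2 through its seed, the bases near its 5′ end, to complementary sites, most often in the 3′ untranslated region (3′ UTR) of an mRNA, and the mRNA is then repressed. Reported miR-7 targets include the epidermal growth factor (EGF) receptor and proteins of its signalling chain and the epithelial transcription factor Klf4, and the long noncoding RNA Cyrano (Oip5os1) is known for binding miR-7 and triggering its decay.

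The mature sequences are shown first because the seed, in capitals (bases 2 to 8), defines the sites counted below. They come from RefSeq on GRCm38.p6, in which all 4 measured arms were found.
miR-7a-5p: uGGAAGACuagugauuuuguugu
miR-7b-5p: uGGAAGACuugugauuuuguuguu
miR-7a-1-3p: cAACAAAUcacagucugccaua
miR-7a-2-3p: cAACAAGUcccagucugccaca
The 5p arms of miR-7a and miR-7b had the same seed, and no other of the 1679 mature miRNAs in the RefSeq table shared it. Counted from 1 at the 5′ end, miR-7b-5p differed from miR-7a-5p by the substitution A10U, outside the seed, and by its length of 24 against 23 bases. A 7mer-m8 site reads GTCTTCC in the target, and an 8mer site reads GTCTTCCA. The 3p arms have other seeds, and miR-7a-2-3p differed from miR-7a-1-3p by A7G, A10C and U21C.

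The hairpins show why the 3p arms matter here: the sequence of miR-7a-5p occurs in the hairpins of Mir7-1 and Mir7-2 alike, and only the 3p arm tells these loci apart. Both mature arms are in capitals.
Mir7-1: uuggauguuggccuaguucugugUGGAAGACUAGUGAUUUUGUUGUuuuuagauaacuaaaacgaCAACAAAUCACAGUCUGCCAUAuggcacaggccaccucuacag
Mir7-2: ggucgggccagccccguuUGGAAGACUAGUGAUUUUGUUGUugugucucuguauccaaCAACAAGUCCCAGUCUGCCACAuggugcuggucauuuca
Mir7b: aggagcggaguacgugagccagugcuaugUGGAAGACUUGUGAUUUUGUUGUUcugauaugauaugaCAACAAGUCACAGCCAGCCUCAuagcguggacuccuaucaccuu
Mir7-1 lies on the minus strand at chr13:58392779-58392886, inside the span of Hnrnpk, the gene of an RNA-binding protein. Mir7-2 lies at chr7:78888277-78888373 and Mir7b at chr17:56242988-56243098, both on the plus strand and outside the span of any other RefSeq gene in the table.

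Depth differed between the kinds of library. The 12 miRNA libraries held 289462 to 471587 reads over the listed miRNAs, whereas the mRNA libraries held 30607 to 974013 reads over the listed peaks. The lowest totals were those of WT replicates 5 and 6, with 30607 and 57037 reads, both in batch 2. In these libraries 66 and 49 of the 97 miR-7 site peaks were at 0, beside 59.8% and 34.0% of all peaks. The main summaries over peaks are therefore given with and without these libraries. Values are normalised counts, that is reads divided by a size factor of the library, and 1 read was worth 0.482 to 4.53 of them in the mRNA libraries. Ago2-bound RNA of gut epithelium was well represented: 8 of 10 colon epithelium markers had a peak, among them Epcam, Cdh1, Vil1 and Krt20, and miR-194-5p, a miRNA of intestinal epithelium, stood at 12775 ± 1259 (SD, n = 6) normalised counts in WT and 13399 ± 1027 in G12D. None of 8 endothelium and nerve markers had a peak. Of 10 leukocyte markers 1 did (H2-Eb1, summed peaks 9.06 to 147 in WT and 39.4 to 116 in G12D), and of 8 fibroblast and smooth muscle markers 3 did (Col1a1, Col1a2 and Col3a1, 18.1 to 649 and 211 to 659), with none for Ptprc or Pdgfra. Of 7 goblet cell markers 6 had peaks, summing to 308.0 to 8713 in WT and 2412 to 7489 in G12D. The blood cell miRNA miR-142a-3p stood at 1224 ± 1096 (SD, n = 6) in WT and 1367 ± 757 in G12D. Other blood miRNAs, miR-142a-5p, miR-223-3p, miR-451a and miR-150-5p, had group means of at most 17.2.

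Nearly all Ago2-bound miR-7 was miR-7a-5p. It stood at rank 63 of 596 by its mean over the 12 tumours, at 1293 normalised counts, between miR-142a-3p at 1296 and miR-484 at 1240. These neighbours could not be separated from it by level, since miR-7a-5p itself ranged from 773 to 1841 and miR-142a-3p from 390.2 to 2780. It made up 0.340% ± 0.068 (SD, n = 12) of all miRNA counts. The 622 recovered reads of miR-7b-5p set against 16171 of miR-7a-5p show the difference between the paralogs, and miR-7b-5p gave 3.64% ± 0.78 (SD, n = 12) of the normalised counts of the shared seed.

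In WT tumours miR-7a-5p ranged from 773 through a median of 1231 to 1386 normalised counts, and in G12D tumours from 1048 through 1373 to 1841. The groups overlapped, with the lowest value in WT replicate 6, the highest in G12D replicate 3, and 5 of 6 G12D libraries above the WT mean. The difference was not resolved from the spread between tumours: the log2 fold change, G12D against WT, was 0.26 ± 0.15 (SE), with a 95% interval from -0.08 to 0.59 (limma adjusted p = 0.417). It was 0.31 within batch 1 and 0.21 within batch 2.

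For miR-7b-5p the WT tumours ranged from 31.1 through 45.6 to 74.6 normalised counts and the G12D tumours from 34.4 through 44.7 to 87.4. These groups overlapped over almost their whole range, and the log2 fold change was 0.11 ± 0.27 (SE), with a 95% interval from -0.48 to 0.70 (limma adjusted p = 0.845). The arm miR-7a-1-3p, the partner of miR-7a-5p in the Mir7-1 hairpin, ranged from 20.6 through 45.2 to 59.4 in WT and from 21.8 through 42.7 to 49.1 in G12D. On the log2 scale the fold change was -0.07 ± 0.29 (SE), with a 95% interval from -0.69 to 0.55 (limma adjusted p = 0.912), and it was -0.44 in batch 1 and 0.30 in batch 2.

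The arm miR-7a-2-3p of the other miR-7a hairpin was at 0 in all 6 WT libraries and in 4 of 6 G12D libraries. G12D replicates 2 and 4 held the only 5 reads, at 2.39 and 2.18 normalised counts. Across the same 12 libraries miR-7a-1-3p had 515 reads. Of the 3 arms with enough counts to be tested, 0 passed limma's adjusted p of 0.05 or an unadjusted one, the smallest unadjusted p being 0.118, beside 11 of 284 miRNAs called in all (3.87%). The arm miR-7b-3p was not among the 596 listed miRNAs, so it has no values here.

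**Figure D1:**
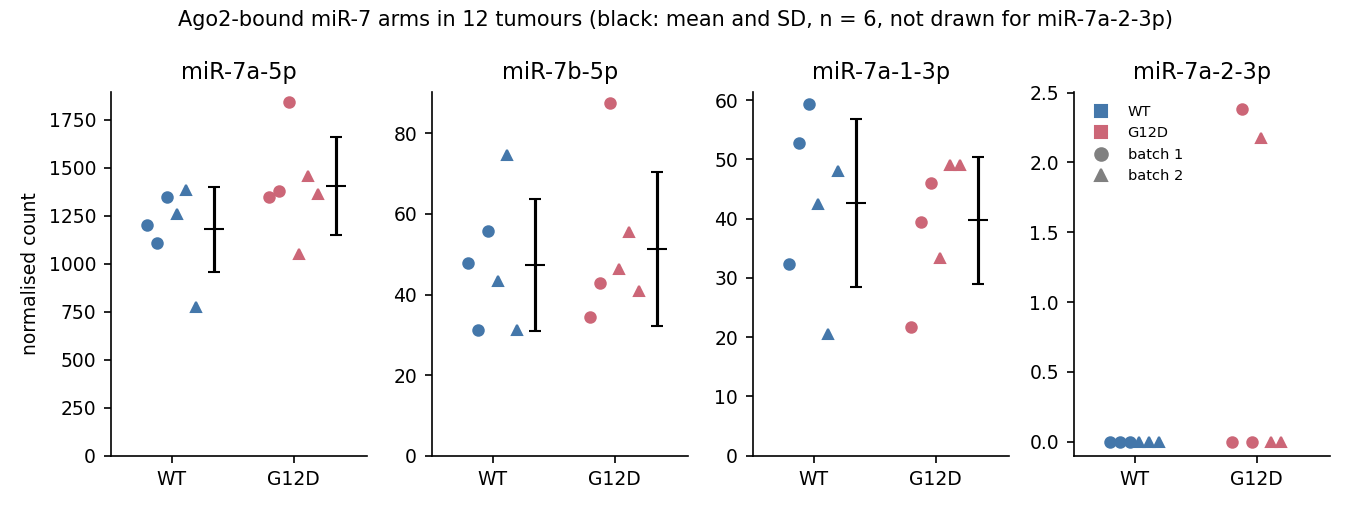
Normalised counts of the 4 miR-7 arms on the vertical axes, each with its own scale, in WT and G12D tumours; circles are batch 1, triangles batch 2, and black marks give the mean and SD of 6 tumours. The miR-7a-5p values reach 1841 while miR-7b-5p and miR-7a-1-3p stay below 90 and miR-7a-2-3p is above 0 in only 2 libraries.

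The ratio of miR-7a-5p to miR-7a-1-3p had a median of 30.6 over the 12 tumours and ranged from 16.1 to 67.4. The widest values came from WT tumours, which held both the lowest ratio and the highest. Once the means of each genotype within each batch were subtracted, the log2 level of miR-7b-5p followed that of miR-7a-5p with r = 0.79, and that of miR-7a-1-3p did not, with r = -0.02. The 5 miRNAs most like miR-7a-5p among 140 of mean at least 100, by the same measure over 12 tumours, were miR-19a-3p (r = 0.92), miR-19b-3p (0.84), miR-215-5p (0.82), miR-378a-3p (0.73) and miR-16-5p (0.65). These correlations are descriptions of libraries that share depth and batch.

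The 97 target peaks placed miR-7 at rank 23 of 88 seed families by number of peaks. An 8mer match was present in 39 of them and a 7mer-m8 match in 59, with both kinds in the Srd5a1 peak. A peak was 39 to 140 bases wide, with a median of 56 bases, which was also the median over all annotated peaks. The authors' annotation put 56 of the 97 (57.7%) in or just beyond a 3′ UTR, against 51.9% of all annotated peaks. Exons held 31 (32.0%, against 32.2% of all) and introns 8 (8.25%, against 12.1%). Introns held 1 of 39 peaks with an 8mer and 7 of 58 with a 7mer-m8 alone, a difference that was not tested.

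For 57 of the 97 peaks miR-7 was the only family with an 8mer or 7mer-m8 match. The other 40 carried a second family, most often let-7 or miR-141-3p, with 5 peaks each (5.15%). Of all annotated peaks, 9.02% had a let-7 match and 1.73% a miR-141-3p match. The 5 miR-7 site peaks with a let-7 match lay in Slc7a6, Rbms1, Nr3c2, Atpaf1 and Tnfaip3. By level the miR-7 site peaks were ordinary, with a median of 17.5 normalised counts against 18.7 over all merged peaks. Of the 97, 6 had a mean of at least 100, 42 of at least 20, and 12 of less than 10. The 8 intronic peaks lay in Tpm3 with 2 and in Ano7, F11r, Insig2, Epb41l4b, Nr3c2 and Dlgap4 with 1 each.

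The authors called 1 peak list per genotype. Of the 97 peaks, 21 were in both lists, 76 (78.4%) in the G12D list alone and 0 in the WT list alone, and of all annotated peaks 71.9% were in the G12D list alone. The lists have no replicates and the WT libraries included the shallowest, so no difference between genotypes is read from these calls.

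Between genotypes, 94 of the 97 peaks had a mean of at least 5 and could be fitted. The peaks just inside this limit were those of Tmem127 at 6.58 and Slc44a4 at 6.85, and those left out were Slmap at 4.41, Tsn at 2.06 and mt-Nd4, which was at 0 in every library. Because the peaks were called on these same libraries, the contrast is a description. The mean was higher in G12D for 96 of the 97 peaks, all but mt-Nd4. On the log2 scale the fold change was above 0 for 93 of the 94 fitted peaks and for 7231 of all 7527. The median log2 fold change was 1.69 over the 94 fitted peaks, and 1.33 over all 7527 fitted peaks, so most of the difference lay in a shift that all peaks shared. Relative to the median of all, 70 of 94 lay above it. Without WT replicates 5 and 6 the medians were 0.55 and 0.38, and 62 of 94 lay above the median of all. Within batch 1, which holds neither of these libraries, 55 of 94 lay above the median of all. Other measures moved with this contrast: the 20 goblet marker peaks had a median log2 fold change of 0.67, which was -0.66 relative to that of all, with 1 of 20 above it, and miR-133a-3p, a miRNA of muscle, stood at 561 ± 375 (SD, n = 6) in WT and 220 ± 77.4 in G12D. Their part in the result was not tested. In bulk tissue a lower peak count cannot tell fewer cells from less RNA per cell, and as no input values entered, it cannot tell the level of an RNA from its binding by Ago2 either.

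By limma, 0 of the 94 peaks passed an adjusted p of 0.05, as did 0 of all 7527 (0%). The smallest adjusted p among them was 0.108, and 55 were higher and 0 lower at an unadjusted p under 0.05, against 2700 higher (35.9%) and 13 lower of all. These calls depended on which WT libraries of batch 2 were kept. Without WT replicate 4, the only deep one, limma called 61 of the 94 and 3404 of all peaks. The WT side of batch 2 was then the shallow replicates 5 and 6 alone. Without those 2 libraries instead, limma called 0 of the 94 and 3 of all peaks. DESeq2 on the recovered reads called 16 of the 94 higher in G12D and 0 lower, beside 10.1% of all peaks called higher. Without WT replicates 5 and 6, an alternative added after the data were seen, DESeq2 called 2 of the 94 higher (Mknk2 and Ezr) and 0 lower, beside 2.48% of all. Every G12D library stood above every WT library in 5 of the 94 peaks, beside 1.70% of all peaks. Against WT replicates 1 to 4 alone the count was again 5, beside 1.94% of all.

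**Figure D2:**
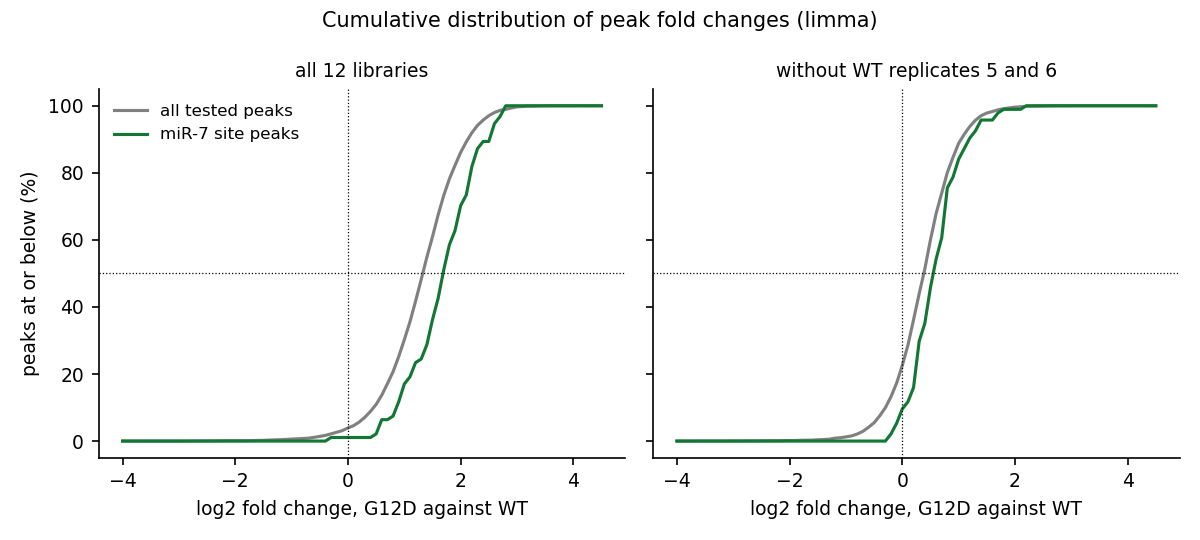
Share of peaks (vertical axis, %) at or below each limma log2 fold change, G12D against WT (horizontal axis), for the 94 fitted miR-7 site peaks and all 7527 fitted peaks, with all libraries and without WT replicates 5 and 6. The miR-7 curve crosses 50% at 1.69 against 1.33 for all peaks, and at 0.55 against 0.38 without the 2 shallow libraries.

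The 38 fitted peaks with an 8mer had a median log2 fold change 0.23 above that of all peaks, and the 56 with a 7mer-m8 alone 0.43 above it. Without WT replicates 5 and 6 these offsets were 0.07 and 0.25, and in batch 1 they were -0.005 and 0.18. The 54 fitted peaks with miR-7 as the only family had an offset of 0.41, and the 40 with another family 0.30. Without WT replicates 5 and 6 both were 0.17, and in batch 1 they were 0.02 and 0.18. The 29 peaks with only a 7mer-A1 match, which pairs bases 2 to 7 and has an A opposite base 1, had a relative median of -0.26 and 101 with only a 6mer one of 0.07, and without WT replicates 5 and 6 these became 0.04 and 0.03. Of the subsets, peaks in the G12D list alone had a median log2 fold change of 1.76, against 1.41 for all annotated peaks in that list alone, and those in both lists had 1.43 against 1.14. Without WT replicates 5 and 6 these were 0.64 against 0.40 and 0.39 against 0.36. In batch 1 they were 0.63 against 0.45 and 0.42 against 0.43. The lists were called on these same libraries, so a higher fold change in the G12D list alone is built in. These values are a description.

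Scaling and batch moved all of these values. With TMM factors computed on the reads, the median was 1.07 for the miR-7 site peaks and 0.60 for all peaks. In batch 1, which holds neither WT replicate 5 nor 6, the medians were 0.56 and 0.44. In batch 2, which holds WT replicates 5 and 6, they were 2.83 and 2.24. The fold change was above 0 for 83 of the 94 peaks in batch 1 and for 94 of 94 in batch 2. Of all 7527 fitted peaks it was above 0 for 5808 in batch 1 and for 7227 in batch 2.

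**Figure D3:**
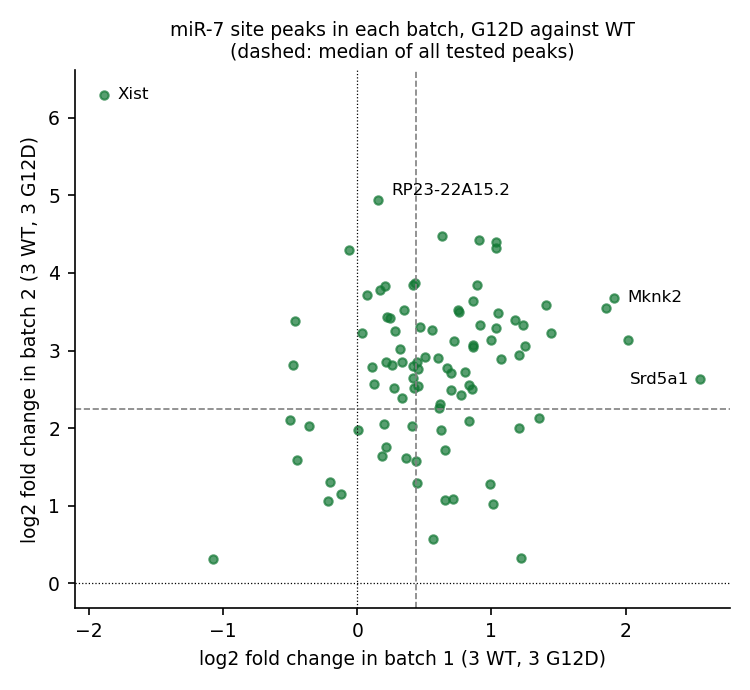
Each point is 1 of the 94 fitted miR-7 site peaks, with its log2 fold change, G12D against WT, in batch 1 (horizontal) and in batch 2 (vertical), from 3 tumours per genotype in each batch; dashed lines mark the medians of all fitted peaks, 0.44 and 2.24. Srd5a1 is far to the right in batch 1 at 2.55, and Xist stands apart at -1.88 in batch 1 and 6.30 in batch 2.

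Among the most abundant peaks were those of membrane transporters. Slc38a2, a sodium-coupled transporter of neutral amino acids, had the miR-7 site peak of highest mean, 236 normalised counts (rank 187 of all peaks), an 8mer in the 3′ UTR at chr15:96687967-96688032 on the minus strand. It ranged from 19.3 through a median of 169 to 282 in WT and from 250.0 through 312 to 422 in G12D. WT replicates 2 and 4 reached into the G12D range, and WT replicates 5 and 6 were the lowest at 22.6 and 19.3. The log2 fold change was 1.71 ± 0.67 (SE), and 0.58 without those 2 libraries.

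The 3′ UTR peak of Slc7a6, an exchanger of cationic and neutral amino acids, has a 7mer-m8 beside a let-7 match (chr8:106195361-106195411, plus strand). It ranged from 9.06 through 47.9 to 220 in WT and from 72.6 through 185 to 341 in G12D. WT replicate 4 alone lay inside the G12D range, and the 3 G12D tumours of batch 2, at 283 to 341, were all above the 3 of batch 1, at 72.6 to 85.9.

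Cytoskeletal genes gave the second group. The 3′ UTR peak of Tubb5, a beta-tubulin, had a mean of 214, a 7mer-m8 and a miR-24-3p match (chr17:35834217-35834280, minus strand). It ranged from 14.5 through 147 to 282 in WT and from 109 through 227 to 585 in G12D, and 4 G12D libraries lay inside the WT range of replicates 1 to 4, which was 89.1 to 282. The exonic peak of Krt19, a keratin of simple epithelia, ranged from 0 through 52.9 to 77.7 in WT and from 51.3 through 102 to 188 in G12D. The difference on the log2 scale, 2.16 ± 0.80 (SE), became 0.78 without WT replicates 5 and 6, of which replicate 5 was the library at 0.

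The third most abundant peak, of mean 200, lies in a noncoding RNA listed under the clone name RP23-22A15.2 (exonic 8mer, chr2:119602124-119602180, plus strand). Of 5 peaks listed under that name, 2 lie inside the span that RefSeq gives Oip5os1, the Cyrano gene, and the miR-7 peak begins 1378 bases past its end. It ranged from 0 through 123 to 235 in WT and from 132 through 231 to 684 in G12D. WT replicate 5 was at 0 and replicate 6 at 7.23, while the other 4 WT libraries, at 110 to 235, overlapped the G12D libraries. The log2 fold change was 2.55 ± 0.98 (SE), but 0.34 without WT replicates 5 and 6 and 0.15 in batch 1, where the medians of all peaks were 0.38 and 0.44.

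Other abundant peaks lay in genes of RNA metabolism, lipid handling and signalling. The 8mer peak in the 3′ UTR of Rbms1, an RNA-binding protein, ranged from 9.06 through 57.5 to 112 in WT and from 67.1 through 112 to 228 in G12D. That of Dhx33, an RNA helicase, ranged from 0 through 30.3 to 63.7 in WT and from 50.7 through 70.9 to 152.2 in G12D. For both, 3 of 6 G12D libraries lay inside the WT range. The 8mer peak of Cnppd1, which encodes a cyclin-like protein, ranged from 4.53 through 79.8 to 143 in WT and from 86.8 through 163 to 234 in G12D, with a log2 fold change of 1.71 ± 0.73 (SE), and of 0.55 without WT replicates 5 and 6.

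In Abhd2 and Ifngr2 the highest values lay in tumours of batch 1. The 8mer peak of Abhd2, a serine hydrolase, ranged from 7.23 through 43.8 to 303 in WT and from 34.7 through 71.4 to 267 in G12D. The tumours above 200 were WT replicates 2 and 3 and G12D replicates 1 and 2, all of batch 1. The 7mer-m8 peak of Ifngr2, a subunit of the interferon-gamma receptor, ranged from 4.53 through 29.5 to 116 in WT and from 23.1 through 34.4 to 277 in G12D, and was again highest in G12D replicates 1 and 2. For Ifngr2 the log2 fold change was 0.90 ± 0.71 (SE), -0.05 with TMM factors, and 0.39 without WT replicates 5 and 6.

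Klf4, a transcription factor of differentiated gut epithelium, was the only gene of the 40 reported miR-7 targets with a miR-7 site peak. This 3′ UTR 7mer-m8 peak (chr4:55528017-55528069, minus strand) ranged from 16.9 through 55.6 to 67.9 in WT and from 34.7 through 64.9 to 100.0 in G12D. It was the exception among the abundant peaks in that WT replicate 5 was the highest WT library, at 67.9, and the 3 batch 1 G12D libraries, at 34.7 to 45.3, lay within the WT range. Its log2 fold change of 0.51 ± 0.61 (SE) was the lowest among miR-7 site peaks of mean at least 20 and became 0.12 without WT replicates 5 and 6, -0.12 in batch 1 and -0.48 with TMM factors. The same gene had 7 more peaks without a miR-7 match.

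**Figure D4:**
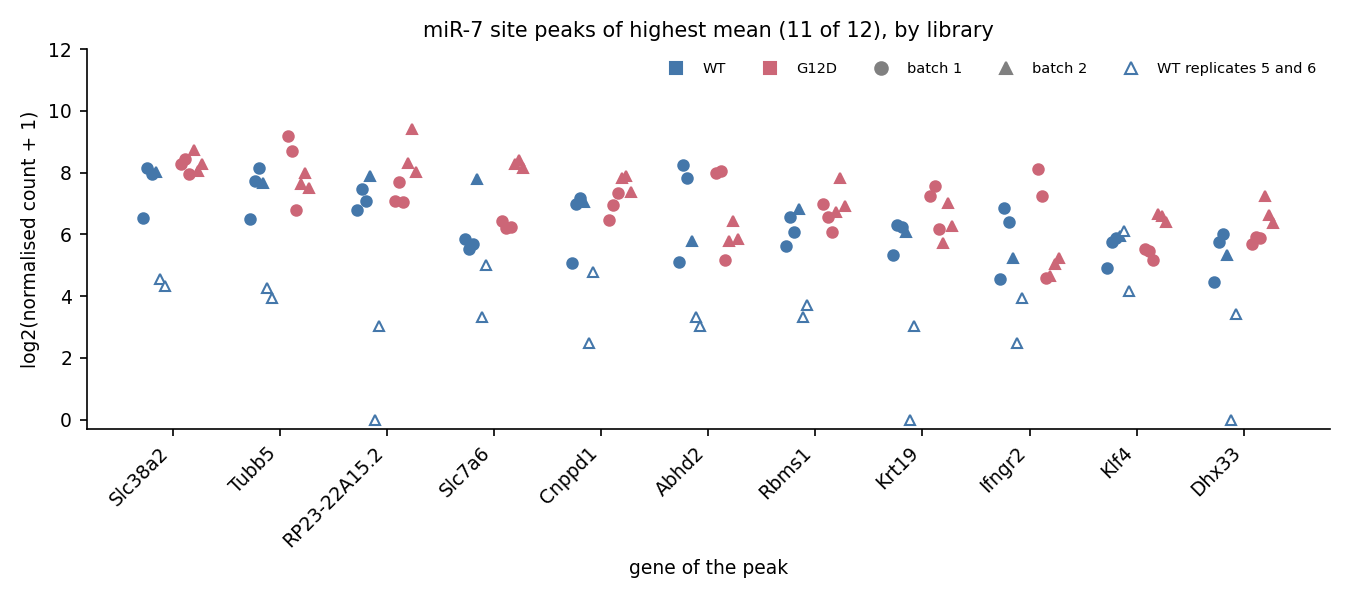
Log2(normalised count + 1) in each library (vertical axis) for 11 of the 12 miR-7 site peaks of highest mean, named by gene; blue is WT, red G12D, circles batch 1, triangles batch 2, and open triangles WT replicates 5 and 6. The open triangles are the lowest points for Slc38a2, Tubb5, RP23-22A15.2 and Dhx33, while for Klf4 WT replicate 5 is among the higher WT values.

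The largest fold changes among peaks of mean at least 20 belonged to Mknk2, Tpm3 and Ezr. Mknk2, a kinase that acts downstream of ERK and phosphorylates the translation factor eIF4E, had an 8mer peak in its 3′ UTR (chr10:80666728-80666790, minus strand). It ranged from 0 through 14.2 to 52.8 in WT and from 29.0 through 94.9 to 138 in G12D. WT replicate 4 was the only WT library inside the G12D range, and the next WT value was 16.9. The log2 fold change was 2.79 ± 0.79 (SE, limma adjusted p = 0.108), and it kept a size of 1.68 without WT replicates 5 and 6 and of 1.91 in batch 1.

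Ezr encodes ezrin, which links the membrane of microvilli to actin. Its 7mer-m8 peak (3′ UTR, chr17:6738325-6738387, minus strand) ranged from 0 through 15.6 to 24.6 in WT and from 36.6 through 42.4 to 70.7 in G12D, with no overlap. On the log2 scale the difference was 2.68 ± 0.79 (SE, limma adjusted p = 0.108) and 1.14 without WT replicates 5 and 6. Tpm3, a tropomyosin that coats actin filaments, was the only gene with 2 miR-7 site peaks, both annotated as intronic 7mer-m8 matches. The first (chr3:90083849-90083915) ranged from 0 through 4.13 to 26.2 in WT and from 6.91 through 28.4 to 137 in G12D. The second (chr3:90091755-90091823) ranged from 0 through 2.38 to 14.3 in WT and from 6.94 through 14.3 to 31.2 in G12D. In both, WT replicate 4 was the highest WT library and lay inside the G12D range, and the log2 fold changes of 2.71 ± 0.86 (SE) and 2.34 ± 0.76 became 1.09 and 1.17 without WT replicates 5 and 6.

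At the other end, beside Klf4, were Maoa and Smpdl3a. The exonic 8mer peak of Maoa, the monoamine oxidase that breaks down serotonin, ranged from 7.23 through 25.4 to 35.8 in WT and from 11.1 through 31.3 to 60.3 in G12D. Its log2 fold change was 0.57 ± 0.66 (SE), and it turned negative without WT replicates 5 and 6, at -0.15, in batch 1, at -0.45, and with TMM factors, at -0.39. The 8mer peak of Smpdl3a, a phosphodiesterase related to acid sphingomyelinase, ranged from 0 through 3.67 to 43.6 in WT and from 0 through 9.40 to 99.6 in G12D. The values above 30 came from WT replicates 2 and 3 and G12D replicates 1 and 2, all of batch 1, as for Abhd2.

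Beside Ezr, every G12D library exceeded every WT library in the peaks of Srd5a1, Tnfrsf23, Dbndd2 and Mfsd5, genes named here after their values were seen. Srd5a1, a steroid reductase, carried both an 8mer and a 7mer-m8 for miR-7 (3′ UTR, chr13:69575070-69575132, minus strand). It ranged from 0 through 2.10 to 5.43 in WT and from 8.30 through 14.2 to 19.1 in G12D. Its log2 fold change of 2.59 ± 0.70 (SE) hardly moved with the shallow libraries, at 2.18 without them, and was 2.55 in batch 1 and 2.63 in batch 2. These are low counts, at rank 7324 of all peaks by mean.

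Tnfrsf23, a decoy receptor of the tumour necrosis factor family, ranged from 0 through 2.73 to 7.41 in WT and from 9.26 through 21.9 to 28.5 in G12D. Its log2 fold change was 2.71 ± 0.73 (SE) and 1.74 without WT replicates 5 and 6. Dbndd2 ranged from 0 through 4.09 to 5.68 in WT and from 5.79 through 17.5 to 33.0 in G12D, and Mfsd5, a membrane protein of the major facilitator superfamily, from 0 through 5.06 to 8.39 and from 8.52 through 14.1 to 23.1. In Dbndd2 and Mfsd5 the gap between the groups was less than the value of 1 read in any library.

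The authors' deposited table lists 16 of the 97 miR-7 site peaks as higher in G12D (adjusted p under 0.05) and 0 lower. It lists 755 of the 7730 merged peaks as higher, and DESeq2 on the recovered reads called 10.1% of all fitted peaks higher. Without WT replicates 5 and 6, DESeq2 called 2 of the 94 fitted miR-7 site peaks higher, beside 2.48% of all. Srd5a1 leads the 16 in the authors' table, with a log2 fold change of 2.37 (adjusted p = 0.0032), followed by Tnfrsf23 with 2.43 and Mknk2 with 2.16. Others in the authors' deposited table are both Tpm3 peaks, Ezr, the regulator of cholesterol synthesis Insig2, the choline transporter Slc44a1, the nuclear pore gene Nup205 and the immediate early gene Fos. Fos, which ERK signalling is known to induce, ranged from 0 through 4.62 to 13.3 normalised counts in WT and from 4.63 through 19.6 to 24.2 in G12D, and Slc44a1 from 0 through 6.92 to 21.7 and from 11.6 through 24.2 to 37.6, both with overlap. The 3′ UTR was the site in Mknk2, Ezr, Srd5a1 and Tnfrsf23, whereas Fos, Nup205 and Slc44a1 had exonic peaks.

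The share of all peak reads that fell in the 97 peaks does not depend on the scaling of a library. It ranged from 0.258% through a median of 0.823% to 1.03% in WT and from 0.888% through 0.982% to 1.23% in G12D. The means were 0.707% ± 0.332 and 1.02% ± 0.132 (SD, n = 6 each), and the groups overlapped. WT replicates 5 and 6 gave the lowest shares, 0.258% and 0.331%, from 79 and 189 reads. Without them the WT mean was 0.914% ± 0.113 (SD, n = 4), so the difference of 0.314 percentage points became 0.107. In batch 1 the means were 0.930% and 1.01% (n = 3 each) and in batch 2 0.485% and 1.04%. Out of reads in peaks with any 8mer or 7mer-m8 match, the means were 1.14% ± 0.38 in WT and 1.49% ± 0.16 in G12D. WT replicates 5 and 6 then stood at 0.861% and 0.518%. The 97 peaks were called on these same libraries, 76 of them in the G12D list alone, so the share is a description.

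**Figure D5:**
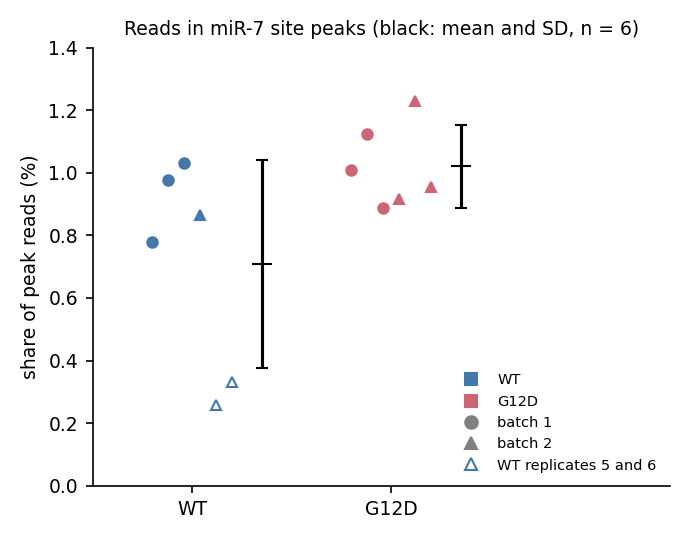
Share of peak reads in miR-7 site peaks (vertical axis, %, starting at 0) in each tumour of the 2 genotypes; circles are batch 1, triangles batch 2, open triangles WT replicates 5 and 6, and black marks the mean and SD of 6. The 2 open triangles, at 0.258% and 0.331%, are apart from the other 4 WT tumours at 0.780% to 1.03%, which overlap the G12D tumours.

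The reported targets of miR-7 were mostly seen through the sites of other families. Of 40 such genes, 18 had a peak, with 34 peaks in all, and 1 of these 34, in Klf4, had a miR-7 8mer or 7mer-m8. By limma 0 of the 34 passed, with 10 higher and 0 lower at an unadjusted p under 0.05, beside 35.9% of all peaks, and DESeq2 called 3 higher and 0 lower, beside the 10.1% called higher among all peaks. Their median log2 fold change was 1.33, equal to that of all peaks. Egfr, the EGF receptor itself, had 2 peaks, one with a miR-200 match and one with a miR-29-3p match. Irs2, an adaptor of the insulin receptor, had 2 peaks, one of them with a let-7 match, and Igf1r, the insulin-like growth factor receptor, had 1, also with a let-7 match.

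None of the 34 genes from the EGF receptor to ERK and PI3K had a miR-7 site peak, although 21 of them had 46 peaks. By limma 0 of the 46 passed, with 21 higher and 0 lower at an unadjusted p under 0.05, beside 35.9% of all peaks, and DESeq2 called 4 higher and 0 lower, beside 10.1% of all. Signalling genes outside that list did carry miR-7 sites, among them Cbl, a ubiquitin ligase that acts on the EGF receptor. Its 3′ UTR 7mer-m8 peak ranged from 0 through 16.2 to 29.1 in WT and from 19.3 through 28.5 to 32.5 in G12D, with overlap. Ago1, a paralog of the protein that was pulled down, also had a 3′ UTR 7mer-m8 peak, from 0 through 8.84 to 25.7 in WT and from 6.94 through 21.4 to 29.1 in G12D. Both were chosen after their values were seen.

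Of 9 genes that host, process or restrain miR-7, 4 had peaks when matched by name or alias. They were Hnrnpk, Msi2, and the uridyltransferases Tut4 and Tut7, listed as Zcchc11 and Zcchc6. None of their 5 peaks had a miR-7 8mer or 7mer-m8, and 0 passed by limma or by DESeq2, with 1 higher at an unadjusted p under 0.05 by limma. Cdr1as, Oip5os1, Elavl1, Qki and Zswim8 had no peak under those names. For Oip5os1 this does not mean that it lacked Ago2 peaks. Of the 5 peaks listed as RP23-22A15.2, 2 lie inside its RefSeq span, and the miR-7 site peak of that name lies past its end. Of 13 enteroendocrine markers, only the hormone gene Pyy had a peak, at 4.53 to 102 in WT and 25.6 to 539 in G12D, and the endocrine miRNA miR-375-3p stood at 7442 ± 1059 (SD, n = 6) in WT and 6017 ± 1421 in G12D. The part of these cells in the miR-7 level was not tested.

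Set beside families with a similar number of peaks, miR-7 had neither the highest nor the lowest miRNA level. The summed 5p arms of miR-7 averaged 1342 normalised counts and had 97 peaks. The family of miR-26-5p, at 14505, had 108 peaks, that of miR-148-3p and miR-152-3p, at 638, had 110, and miR-96-5p, at 568, had 86. Against the median of all peaks, the median log2 fold change of miR-26-5p peaks lay 0.18 above, that of miR-148-3p and miR-152-3p peaks had a relative value of -0.14 and that of miR-96-5p peaks -0.15, beside the 0.36 of miR-7 site peaks. Without WT replicates 5 and 6 the relative medians were 0.08, 0.03 and -0.14, beside 0.17. In batch 1 they were 0.20, 0.06 and -0.12, beside 0.13, so that miR-26-5p stood above miR-7 there. These differences were not tested.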

How the data were processed

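HEAP libraries of Ago2-bound miRNA and mRNA from 12 tumours were analysed; input libraries were not analysed here. The authors deposited normalised counts as a signal per feature, that is read counts divided by a size factor per library, for 596 miRNAs and 7730 merged peaks. Every value was a whole multiple of 1 read in its library (tolerance 0.001 reads, 100% of values). The submitters' processing notes name the tools DESeq2 and STAR 2.5.2b with the builds GRCm38 and mm10, without roles. No peak caller is named there. Seed matches, regions and gene names are those of the authors' annotation. The authors deposited log2 fold changes and adjusted p-values of their own comparison, used only where named. The deposited peak lists carry a score without a stated scale, used only to tell which list holds a peak. Peak columns, whose names hold a model and a number, were read as the mRNA libraries although no library type is stated in them, and 0 columns were left unmapped. Peaks in paralogs or repeats can share reads.

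In R 4.3.3, limma 3.58.1 fitted log2(value + 1) on genotype and batch with a trended prior, over 284 miRNAs of mean at least 10 and 7527 peaks of mean at least 5, with Benjamini-Hochberg adjustment at 0.05; adding 1 understates the fold changes of low features. edgeR 4.0.16 and DESeq2 1.42.0 on the recovered reads, TMM scaling, other pseudocounts, no filter, single batches and left-out libraries were alternatives. The fit was tested on simulated data. The planned tests of the share of reads and of its correlation with miR-7a-5p were not run, since the members were chosen with results known. Named peaks were the 12 of highest mean, those in reported targets, those of genes with several, and the 3 highest and 3 lowest fold changes at a mean of at least 20. An item that the rule names is not reported here. Members, lists and this rule were chosen with earlier results of these data known. Same-numbered tumours did not deviate together and were not paired. Duplicate reads cannot be told from separate molecules here. Figures used matplotlib 3.10.9.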

Additional observations from a re-analysis of the deposited data

Results flagged for a closer look

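Groups of 6 libraries were examined for the arms, the named peaks and the share of reads, in each genotype. In 6 of 46 such groups, 1 library stood far from the others by Dixon's criterion. For independent groups of normally distributed values, chance meets it in about 1 in 20 groups. These groups share libraries and all 6 flags were high values, so that rate need not hold here. In WT, replicate 4 was the high library in 3 peaks: Slc7a6 at 220 against a next value of 56.8, Mknk2 at 52.8 against 16.9, and the second Tpm3 peak at 14.3 against 4.47. It is the only deep WT library of batch 2. In G12D, replicate 5 was high for RP23-22A15.2, at 684 against 319, and for Rbms1, at 228 against 126, and replicate 2 for Smpdl3a, at 99.6 against 36.7.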

How the results depend on the processing

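The count of miRNAs past the threshold, 11, came to 27 with DESeq2, 20 with DESeq2 without WT replicates 5 and 6, 6 without the batch term, 1 in batch 1 alone, 0 in batch 2 alone and 5 to 16 with 1 library left out; no miR-7 arm passed under any of these. The count of peaks, 0, and of miR-7 site peaks among them, 0, came to 513 and 15 with a pseudocount of 5, 789 and 16 with DESeq2, 195 and 2 with DESeq2 without WT replicates 5 and 6, 234 and 6 in batch 2 alone, and 0 to 3404 and 0 to 61 with 1 library left out, the upper ends without WT replicate 4. edgeR called 12 peaks and the fit without WT replicates 5 and 6 called 3, none a miR-7 site peak. The log2 fold change of miR-7a-5p ran from 0.15, without WT replicate 6, to 0.34, without WT replicate 5. That of miR-7a-1-3p became 0.30 in batch 2 alone and ran from -0.27 to 0.11 with 1 library left out, and that of miR-7b-5p from -0.069 to 0.27. With TMM factors Ifngr2, Klf4 and Maoa had -0.054, -0.48 and -0.39, in batch 1 alone Klf4 and Maoa had -0.12 and -0.45, and without WT replicates 5 and 6 Maoa had -0.15 by limma and -0.13 by DESeq2. The cause of these changes was not tested. The median of the miR-7 site peaks less that of all peaks ran from 0.12 to 0.59 over all settings.

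With the replicate number as a block in place of batch, 6 miRNAs and 0 peaks passed. After batch, same-numbered tumours correlated from -0.52 to 0.31 in peaks and from -0.36 to 0.31 in miRNAs. No pairing by number was seen, but so few libraries cannot exclude one, and the labels do not state any. The planned correlation settings were not run. In WT replicate 5, 1 read was worth 4.53 normalised counts, which limits low peaks there.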

Other observations

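The peak in Xist, the RNA that coats the inactive X chromosome, held 2 miR-7 7mer-m8 matches and was chosen for mention after its values were seen. It stood at 77.9 to 150 normalised counts in the 3 G12D tumours of batch 2 and at 0 to 13.3 in the other 9 tumours. The summed 5 Xist peaks, of which 1 has a miR-7 match, were 599 to 876 in those 3 tumours and 0 to 358 in the others, and the labels give no sex. The log2 fold change of this miR-7 site peak, -1.88 in batch 1 and 6.30 in batch 2, thus differed in sign between batches, a difference that was not tested.

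Solute carrier genes, a group noticed after the values were seen, held 5 of the 97 miR-7 site peaks (5.15%), in Slc38a2, Slc7a6, Slc12a2, Slc44a1 and Slc44a4, and 157 of 7585 annotated peaks (2.07%).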
